A study of Glycine max with 6 samples.

Results

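Transcripts of MYB, bZIP and WRKY transcription factors were measured in soybean roots of a pair of near isogenic lines, the Fe-efficient Clark and the Fe-inefficient IsoClark. A gene belonged to the set when its symbol in the platform annotation began with MYB, BZIP or WRKY and went on with a number, and its clones were those on the array that carried that symbol alone. The rule used no measured value. It found 33 of the 526 named genes, represented by 40 of the 1091 named clones, on an array of 18361 clones in all. There were 15 MYB genes on 19 clones, 12 bZIP genes on 13 clones and 6 WRKY genes on 8 clones. Looked up by gene identifier in RefSeq's soybean annotation (Glycine_max_v4.0), all 33 genes were found under an unchanged symbol.

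IsoClark was bred by crossing Clark with the Fe-inefficient line T203 and backcrossing to Clark, so it holds the Clark background together with the T203 segments kept during selection. Both lines were grown under Fe sufficient conditions in a DTPA-buffered hydroponic solution with bicarbonate and were harvested at the V3 stage, and each sample was root tissue pooled from several plants of 1 hydroponic unit. The 3 biological replicates were each hybridized to a pair of spotted cDNA arrays with the dyes exchanged. By the label fields, IsoClark was labelled with Cy3 on 3 arrays and with Cy5 on the other 3. Whole roots were used, so fewer cells of a type and less RNA per cell cannot be told apart.

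The 3 families bind DNA through different domains. MYB factors carry helix-turn-helix repeats, and in plants many of them control phenylpropanoid metabolism, cell shape and stress responses. The bZIP factors hold a basic region that contacts DNA and a leucine zipper through which they dimerize, and they act in light, abscisic acid and stress signalling. WRKY factors are plant regulators named for a conserved peptide motif, bind the W-box and are best known from defence and abiotic stress. In roots all 3 families include regulators of development and of the response to nutrient supply.

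The arrays differed in quality. Per array, the median cDNA spot was 5.09 to 18.3 times its local background in the IsoClark channel and 3.31 to 13.9 times in the Clark channel. Between 18.9% and 44.2% of the cDNA spots were flagged as poor by the image program, and 1 to 17 of the 41 member spots. Of the genes that mark root tissue, the clones of the expansin EXP1 and the aquaporin PIP2-6 lay above background in 96.3% ± 3.31 of their usable spots (SD, n = 3). The clones of the green tissue markers CAB3, ELIP and PSAD did so in 97.2% ± 4.81, and those of seed storage and inhibitor genes in 69.7% ± 15.5, while the blank and empty spots did so in 5.28% ± 0.946. A signal above background on these cDNA spots was therefore common and not restricted to root marker genes.

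None of the transcription factors differed between the lines in the test. A clone was tested when it lay above background, that is, its signal mean exceeded the background median by more than 2 background SD, in either line on at least 3 arrays, and when all 3 replicates gave a usable value. Here and below, counts of arrays above background include spots flagged as poor unless usable spots are named. Both conditions held for 33 of the 40 clones, which stand for 29 of the 33 genes. Of these, 0 passed an adjusted p of 0.05 in limma, as did 0 of all 13430 clones tested (0%). At an unadjusted p under 0.05 there was 1 member of 33, the bZIP gene BZIP109, against 743 of all clones (5.53%). The log2 ratio of IsoClark over Clark lay between -0.28 and 0.52, and in 32 of the 33 clones the 95% interval stayed inside 2-fold both ways. The same held for 13149 of all 13430 clones tested.

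**Figure D1:**
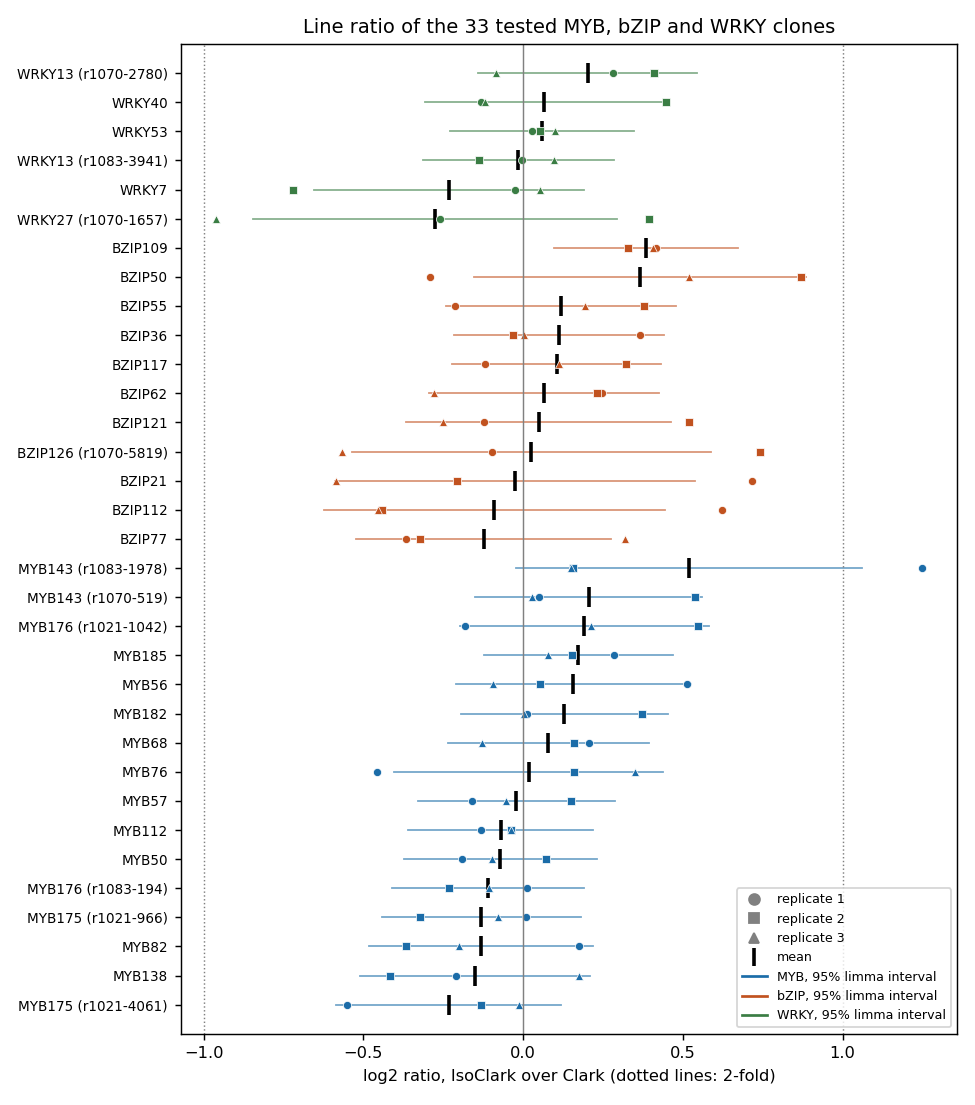
The log2 ratio of IsoClark over Clark (x axis) is plotted for each of the 33 tested clones (y axis), with the 3 replicates as symbols, the mean as a black bar and the 95% limma interval as a line. The interval of BZIP109 alone lies wholly on one side of 0, and that of 1 MYB143 clone alone reaches past 2-fold.

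The families did not stand apart in their line ratio. The median over tested clones was -0.002 for MYB, 0.07 for bZIP and 0.02 for WRKY, beside 0.003 over all clones tested. In replicates 1, 2 and 3 the MYB median was 0.01, 0.11 and -0.03, the bZIP median was -0.10, 0.32 and 0.004, and the WRKY median was -0.01, 0.22 and -0.02. All 3 medians were highest in replicate 2, where the median of all clones was -0.008. The replicate medians changed sign within every family. The ratio was above 0 for 8 of 16 MYB clones, 8 of 11 bZIP clones and 3 of 6 WRKY clones, beside 6809 of all 13430 clones tested. All 3 replicates had 1 sign in 6 MYB clones, 1 bZIP clone and 1 WRKY clone, 8 of 33 in all or 24.2%, which is near the 29.1% of all clones tested.

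Among the MYB factors, MYB143 had the highest ratio and MYB175 the lowest. The MYB143 clone of set Gm-r1083 (Gm-r1083-1978) had log2 ratios of 1.25, 0.16 and 0.15 in replicates 1 to 3, a mean of 0.52 ± 0.63 (SD, n = 3) with a 95% interval from -0.02 to 1.06 and an adjusted limma p of 0.796. Replicate 1 stood far above the other replicates, and without it the mean was 0.15. The replicate 1 value came from 1 array, with IsoClark in Cy3, because the other spot of that pair was poor, so a dye effect does not cancel in it. The clone lay above background on 4 of the 6 arrays, poor spots counted. Of its 4 usable spots, 2 were above background in IsoClark and 1 in Clark, so the ratio rested largely on spots not above background.

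MYB176, which is known to regulate a chalcone synthase gene and with it isoflavonoid synthesis in soybean, had 2 clones of opposite sign. Gm-r1021-1042 had -0.18, 0.55 and 0.21, a mean of 0.19 ± 0.37. Gm-r1083-194 had 0.01, -0.23 and -0.11, a mean of -0.11 ± 0.12. Both intervals included 0, and neither clone had the same sign in all 3 replicates. MYB56 had 0.51, 0.05 and -0.09 with a mean of 0.16 ± 0.32, which rested on replicate 1 and was -0.02 without it.

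On the lower side, MYB138 had -0.21, -0.42 and 0.17, a mean of -0.15 ± 0.30. Its replicate 2 value came only from the array with IsoClark in Cy5, and with that array turned the mean was 0.13. MYB82 had 0.17, -0.37 and -0.20, a mean of -0.13 ± 0.28. In each of them 1 replicate had the opposite sign to the others. The remaining MYB genes had 1 tested clone each, and their means ran from -0.07 for MYB112 and MYB50 through -0.02 for MYB57, 0.02 for MYB76 and 0.08 for MYB68 to 0.13 for MYB182 and 0.17 for MYB185. MYB76, which raises salt and freezing tolerance when overexpressed in Arabidopsis, varied most among these, with -0.46, 0.16 and 0.35. MYB185 had a positive ratio in every replicate (0.28, 0.15 and 0.08), each from 1 array. MYB112 was negative in every replicate (-0.13, -0.04 and -0.04).

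Among the bZIP factors, BZIP109 had the most even values of all member clones apart from WRKY53. Its log2 ratios were 0.42, 0.33 and 0.41, a mean of 0.38 ± 0.05 (SD, n = 3) with a 95% interval from 0.10 to 0.67. The unadjusted limma p was 0.0162 and the adjusted p 0.796, and an exact sign-flip test on 3 replicates cannot go below 0.25. The arrays of a pair were less even than the replicate means. With IsoClark in Cy3 the ratio was 0.88, 0.43 and 0.63, and with IsoClark in Cy5 it was -0.05, 0.23 and 0.18. Cy5 over Cy3, averaged over the pairs, was -0.26 with an unadjusted limma p of 0.0414 (exact sign-flip minimum 0.25) and an adjusted p of 0.382, and 0 of the 2618 clones in that comparison passed while 321 had an unadjusted p under 0.05. The signal of the clone was 2.02 to 23.0 times background in IsoClark and 1.86 to 11.02 times in Clark, and 5 of 6 arrays were above background. Under print-tip loess in place of global loess the mean was 0.14.

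BZIP50 had the next ratio, with -0.29, 0.87 and 0.52 and a mean of 0.37 ± 0.60. It was above background in IsoClark on 3 arrays and in Clark on 2, and among its 5 usable spots on 2 and 1. Its mean was 0.69 without replicate 1 and 0.06 under print-tip loess. BZIP55 had -0.21, 0.38 and 0.19, a mean of 0.12 ± 0.30, and BZIP117 had -0.12, 0.32 and 0.11, a mean of 0.11 ± 0.22. Replicate 1 was the lowest in each of these 3 genes and the only one below 0. With the replicate 2 array with IsoClark in Cy5 turned, the mean was -0.05 for BZIP55 and -0.11 for BZIP117. The replicate 2 value of BZIP117 came from that array alone.

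BZIP77 had the lowest bZIP ratio, with -0.37, -0.32 and 0.32 and a mean of -0.12 ± 0.38. BZIP112 had 0.62, -0.44 and -0.45, a mean of -0.09 ± 0.62, and BZIP21 had 0.72, -0.21 and -0.58, a mean of -0.03 ± 0.67. In all 3 the replicates lay on both sides of 0, by as much as 1.30 from the lowest to the highest in BZIP21. Without replicate 1 the mean was -0.45 for BZIP112 and -0.40 for BZIP21. The BZIP112 values came only from arrays with IsoClark in Cy3, as did those of BZIP121 (-0.12, 0.52 and -0.25), so line and dye cannot be told apart in these 2 clones.

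Of the other bZIP genes, BZIP36 and BZIP62 had means of 0.11 ± 0.22 and 0.07 ± 0.30. BZIP36 has the RefSeq synonym SOYSTF1A and belongs to the soybean STF factors, relatives of the light-signalling regulator HY5 of Arabidopsis. BZIP62 acts in abscisic acid signalling and raises salt and freezing tolerance when overexpressed in Arabidopsis. It was above background on 5 arrays in IsoClark and on 3 in Clark. Both genes had replicate values on both sides of 0.

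WRKY27, known for raising drought and salt tolerance when overexpressed, had both the lowest WRKY ratio and the widest spread of all 33 tested clones. Its tested clone (Gm-r1070-1657) had -0.26, 0.39 and -0.96, a mean of -0.28 ± 0.68 that became 0.07 without replicate 3. It was above background on 5 arrays in Clark and on 3 in IsoClark. WRKY7, with the RefSeq synonym GmWRKY1, had -0.03, -0.72 and 0.05, a mean of -0.23 ± 0.43 that rested on replicate 2 and was 0.01 without it.

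The other WRKY genes lay close to 0 or above it. WRKY13, whose overexpression in Arabidopsis gives more lateral roots and changes stress tolerance, had 0.28, 0.41 and -0.09 on clone Gm-r1070-2780, a mean of 0.20 ± 0.26. WRKY40 had -0.13, 0.45 and -0.12, a mean of 0.06 ± 0.33, and -0.13 without replicate 2. WRKY53 had 0.03, 0.05 and 0.10, a mean of 0.06 ± 0.04 (SD, n = 3), with a 95% interval from -0.23 to 0.35. It had the smallest spread of the 33 clones, and its sign was positive in every replicate.

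The 7 clones that were not tested fall into separate kinds. BZIP53B, a bZIP gene with the RefSeq synonym bZIP41, was above background on 0 of 6 arrays in either line, with signals of 1.06 to 1.52 times background in IsoClark and 1.14 to 1.50 times in Clark. WRKY33 was above background on 1 array, with a median signal of 1.39 times background in IsoClark and 1.26 times in Clark. For these 2 genes the lines were not compared. The other 5 clones were above background on 3 or more arrays, poor spots counted, but had no usable spot in 1 replicate. They were 1 of the 3 MYB175 clones, MYB180, MYB85, the second WRKY27 clone and the second BZIP126 clone. MYB180 had 0.83 and 0.40 and MYB85 had 0.09 and 0.32 in replicates 2 and 3. None of the 3 usable MYB180 spots was above background in either line, so its ratios came from signals not above background.

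Taken over all their clones, MYB and bZIP differed in the share of spots above background. Over both lines, 93.2% ± 4.28 of usable MYB spots were above background (SD, n = 3), 73.1% ± 5.40 of bZIP spots and 77.3% ± 15.8 of WRKY spots, beside 83.8% ± 8.59 of all cDNA spots and 5.28% ± 0.946 of blank and empty spots. The MYB share exceeded the bZIP share by 18.8, 21.0 and 20.4 percentage points in replicates 1 to 3, a mean of 20.0 ± 1.13, which is more than the spread between replicates. The smallest p of an exact sign-flip test on 3 replicates is 0.25. The WRKY share was 4.22 ± 11.5 points above the bZIP share and was higher in 2 of 3 replicates, so over all their clones these families were not separated. The members share the same arrays, and these shares describe the printed clones.

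**Figure D2:**
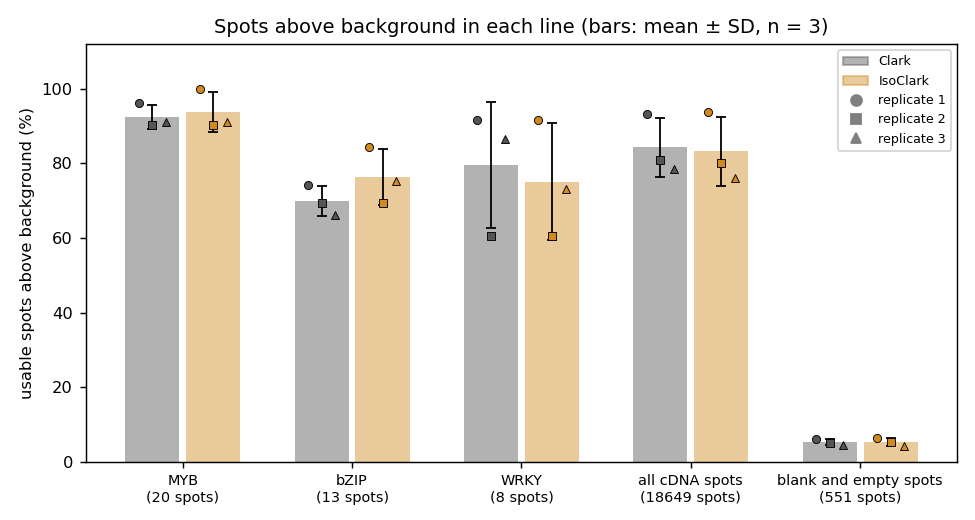
The percentage of usable spots above background (y axis) is plotted for each family, all cDNA spots and blank and empty spots, in Clark and IsoClark, with bars for the mean, error bars for the SD over 3 replicates and symbols for the replicates. In every replicate the MYB values lie above the bZIP values, and blank spots stay near 5.28%.

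BZIP53B made up part of the difference, and several other bZIP clones added to it. Of the spots not above background, the bZIP family had 15 in IsoClark and 18 in Clark, and BZIP53B alone gave 6 of each. BZIP50 gave 3 and 4, BZIP62 gave 1 and 3, and the remainder came from BZIP126, BZIP21 and BZIP109. In the MYB family the 6 spots in IsoClark and 7 in Clark belonged to MYB143 (Gm-r1083-1978), MYB180 and MYB85. In the WRKY family all 8 in IsoClark and 6 in Clark belonged to WRKY33 and WRKY27 (Gm-r1070-1657). Left out after its values were seen, BZIP53B moved the bZIP share to 81.4% and the gap to MYB to 11.8 ± 1.62 points, and leaving out WRKY33 moved the WRKY share to 89.1%. Without WRKY33 the WRKY share exceeded the bZIP share by 20.7, 5.68 and 21.5 points, a mean of 15.97 ± 8.92.

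The clone sets from which the families were drawn differed too. Of the MYB clones, 14 of 19 came from the root unigene sets Gm-r1021 and Gm-r1083, against 5 of 13 bZIP clones and 4 of 8 WRKY clones, and the rest came from set Gm-r1070. Over all clones, 88.8% ± 5.11 of root set spots were above background and 79.1% ± 11.7 of Gm-r1070 spots. Within the root sets, MYB exceeded bZIP by 29.1 ± 9.14 points, which became 6.63 ± 10.7 without BZIP53B. Within Gm-r1070, MYB exceeded bZIP by 3.33 ± 12.4 points, with 12.5, 8.33 and -10.8 in the 3 replicates. The family difference was thus larger than the replicate spread in the root sets only with BZIP53B included, and not in Gm-r1070. All usable WRKY spots of the root sets were above background in both lines, against 59.0% ± 23.0 of those of Gm-r1070. WRKY minus bZIP thus had opposite signs in the clone sets. It was 32.2 ± 8.58 points in the root sets (above 0 in 3 of 3 replicates) and -16.8 ± 11.1 points in Gm-r1070 (above 0 in 0 of 3). Without BZIP53B the root set bZIP share was 90.3% ± 10.5, so the gap to the WRKY share of 100% was no larger than that spread. The 4 WRKY clones of Gm-r1070 included WRKY33, which had no usable spot above background.

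Between the lines the shares differed by a few percentage points. IsoClark minus Clark was 1.28 ± 2.22 points for MYB, 6.36 ± 5.54 points for bZIP and -4.46 ± 7.73 points for WRKY, beside -1.01 ± 1.43 points over all cDNA spots. The bZIP difference was 10.1, 0 and 8.97 points in the 3 replicates and so was never negative. Of the 40 clones, 32 were above background on equally many arrays in both lines, 6 on more arrays in IsoClark and 2 on more in Clark. Both lines were above background on all 6 arrays for 26 clones, among them 16 of 19 MYB clones. These counts by line were not made over all clones, so no lean of the members toward a line is read from them. In either line, 29 of 40 clones were above background on all 6 arrays, beside 74.4% of all clones on the array.

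Taken over all its clones, the bZIP family also had the lowest median spot brightness. Brightness was taken as the percentile of a clone among the usable cDNA spots of an array, averaged over arrays. The amount and length of the printed DNA and cross-hybridization also set the brightness of a spot, so these values describe spots and are not an order of transcript abundance. The median clone lay at the 59.4 percentile for MYB, 35.6 for bZIP and 67.4 for WRKY, beside 53.7 for all root set clones and 42.8 for all Gm-r1070 clones. The MYB median exceeded the bZIP median by 31.2, 22.2 and 29.6 percentile points in replicates 1 to 3, and the WRKY median did so by 35.6, 22.7 and 28.3. The MYB and WRKY medians differed by 4.46, 0.56 and -1.30 points and were not separated. Above the 50 percentile lay 14 of 19 MYB clones, 3 of 13 bZIP clones and 5 of 8 WRKY clones. Over all clones, 4968 of 9066 root set clones and 3901 of 9205 Gm-r1070 clones lay above it.

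**Figure D3:**
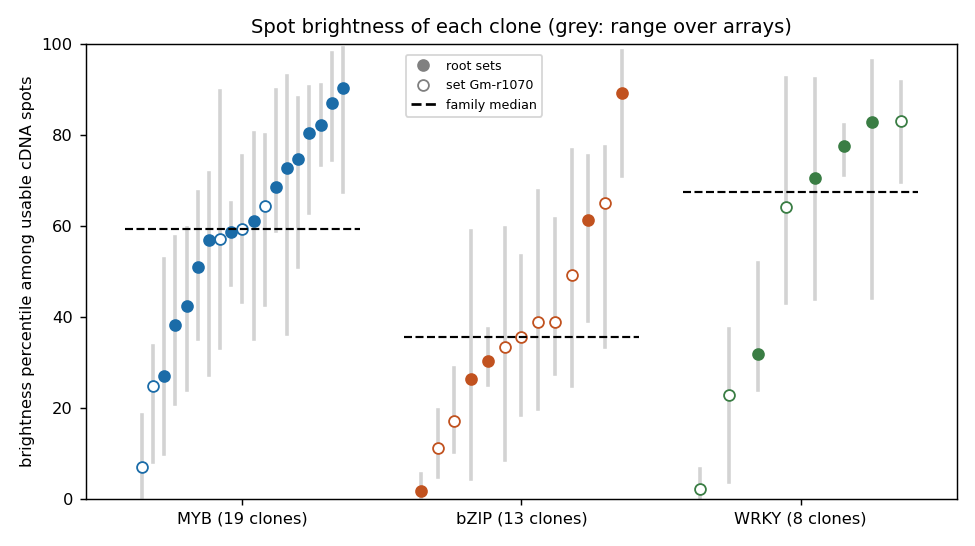
The brightness percentile among usable cDNA spots (y axis) is plotted for each clone of the 3 families, filled for the root sets and open for set Gm-r1070, with grey lines for the range over arrays and dashed lines for the family medians of 59.4, 35.6 and 67.4. Each family spans from dim to bright clones, and most bZIP clones are open symbols below the 50 percentile.

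Each family held bright and dim members. MYB112 was the brightest clone, at the 90.3 percentile, with 15.5 to 68.1 times background in IsoClark and 9.51 to 77.3 times in Clark, and MYB56 followed at 87.0. BZIP55 reached 89.2, with 10.0 to 60.6 times background in IsoClark and 10.5 to 61.5 times in Clark, and was the only bZIP clone above the 70 percentile. BZIP117 came next at 65.1. Both WRKY13 clones lay at 83, from different clone sets (82.9 and 83.0). The signals of MYB112, MYB50 and BZIP55 were saturated on 1 array each in at least 1 line.

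At the low end, MYB180 lay at the 6.99 percentile and MYB85 at 24.9. BZIP53B lay at 1.65 and BZIP50 at 11.2. WRKY33 lay at 2.11 and WRKY27 (Gm-r1070-1657) at 22.9. The dimmest bZIP and WRKY clones were near their local background, at a median of 1.28 and 1.39 times it in IsoClark. Within the root sets the bZIP median was 30.2 against 64.9 for MYB and 74.1 for WRKY, and within Gm-r1070 it was 37.3 against 57.2 for MYB and 43.6 for WRKY. The WRKY and bZIP medians of Gm-r1070 differed by -15.9, 11.96 and 4.39 points in the replicates and were not separated.

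Dimmer clones varied more between replicates. Across the 33 tested members the SD of the log2 ratio and the brightness percentile had a Spearman's rho of -0.57, and across all 13430 clones tested it was -0.37. These points share arrays and replicates, and the coefficient is given as a description. The median SD was 0.41 for the 13 members at or below the 50 percentile and 0.22 for the 20 above it. By family it was 0.24 for MYB, 0.38 for bZIP and 0.29 for WRKY, beside 0.22 over all clones. The 4 member clones with an SD above 0.63, namely WRKY27, BZIP21, BZIP126 (Gm-r1070-5819) and MYB143 (Gm-r1083-1978), all lay below the 34 percentile.

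For 6 genes several clones were printed, which share a gene and are not replicates of the lines. The 3 MYB175 clones lay close together in brightness, from the 57.0 to the 61.0 percentile. Gm-r1021-4061 had -0.55, -0.13 and -0.01, a mean of -0.23 ± 0.28, and Gm-r1021-966 had 0.01, -0.32 and -0.08, a mean of -0.13 ± 0.17. The untested clone (Gm-r1083-2851) had -0.79 and -0.21 in replicates 2 and 3. The clones were read on the same replicates, so their values are not independent of each other. Neither tested clone passed (adjusted limma p 0.796 for Gm-r1021-4061 and 0.85 for Gm-r1021-966).

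**Figure D4:**
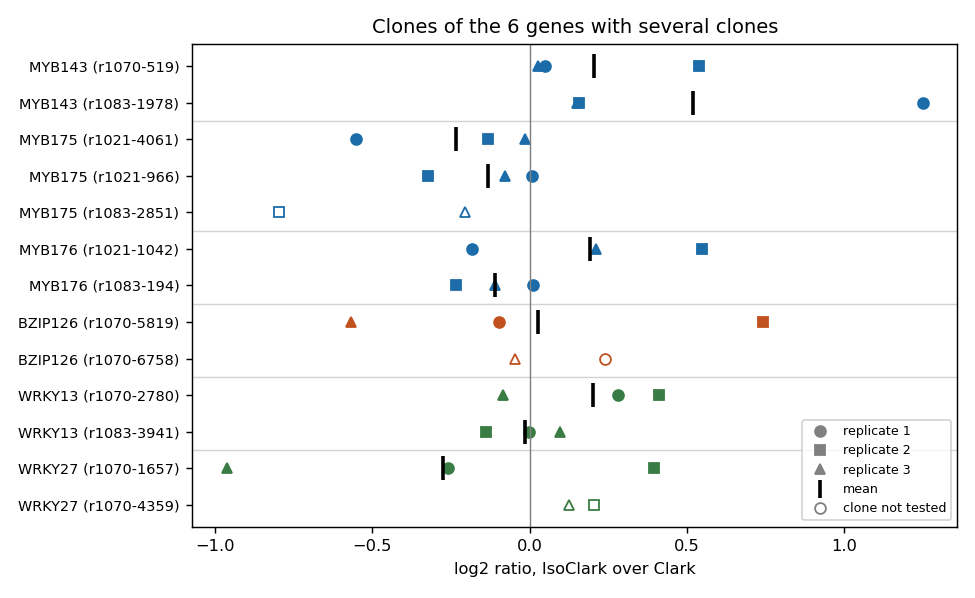
The log2 ratio of IsoClark over Clark (x axis) is plotted by replicate for each of the 13 clones of the 6 genes with several clones, filled for tested and open for untested clones, with a black bar for the mean. The MYB175 clones lie mostly below 0 and the MYB143 clones above it, and the 2 clones of MYB176 have means on opposite sides of 0.

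The second MYB143 clone (Gm-r1070-519) had 0.05, 0.54 and 0.03, a mean of 0.20 ± 0.29. Both MYB143 clones were therefore positive in all 3 replicates, but a different replicate stood out in each, replicate 1 in one and replicate 2 in the other. The replicate 2 value came from the array with IsoClark in Cy5 whose labelling text names another dye than its label field, and with that array turned the mean was -0.15. The clones lay at the 27.0 and 57.2 percentile.

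The other genes gave less uniform pairs. The WRKY13 clones, almost equal in brightness, had means of 0.20 ± 0.26 and -0.01 ± 0.12, the second (Gm-r1083-3941) from -0.003, -0.14 and 0.10. The WRKY27 clones lay at the 22.9 and 64.2 percentile, and the brighter, untested one (Gm-r1070-4359) had 0.20 and 0.12 in replicates 2 and 3 where the dimmer had 0.39 and -0.96. The tested BZIP126 clone (Gm-r1070-5819) had -0.10, 0.74 and -0.57, a mean of 0.03 ± 0.66, while the second (Gm-r1070-6758) had 0.24 and -0.05 in replicates 1 and 3. Where 2 clones of a gene were tested, their means differed by 0.10 for MYB175, 0.22 for WRKY13, 0.30 for MYB176 and 0.31 for MYB143. Each difference was less than the larger SD over replicates of the clones concerned. It was more than the smaller SD for WRKY13 (0.12), MYB176 (0.12) and MYB143 (0.29), but not for MYB175 (0.17). The clones share replicates, and the difference between them was not tested.

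The clone of MYB68 was printed in 2 places. On the array of replicate 1 with IsoClark in Cy5, where both spots were usable, they gave 31.8 and 23.0 times background in IsoClark and 13.95 and 12.4 times in Clark. On the replicate 3 arrays they gave 3.96 and 4.29 times in IsoClark with Cy3 and 5.65 and 7.61 times with Cy5. The usable spots of this clone differed less from each other than the arrays did. Its mean ratio was 0.08 ± 0.18, and the 27 genes with a single clone, MYB68 among them, could not be checked against another clone.

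Only 10 of the tested member clones had usable spots on all 6 arrays, and in these the dye orientations could be set side by side. None of the 10 had 1 sign on all 6 arrays, against 4.74% of the 2618 clones measured on all 6. MYB50 had opposite signs in the orientations, with -0.57, -0.24 and -0.35 where IsoClark was in Cy3 and 0.18, 0.39 and 0.16 where it was in Cy5, a pattern seen in 7.68% of the 2618 clones. The pair means of MYB50 were -0.19, 0.07 and -0.10. BZIP21 moved with the replicate instead, with 0.91 and 0.52 in replicate 1, 0.03 and -0.44 in replicate 2 and -0.41 and -0.76 in replicate 3. MYB57 was the most even, between -0.19 and 0.21.

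**Figure D5:**
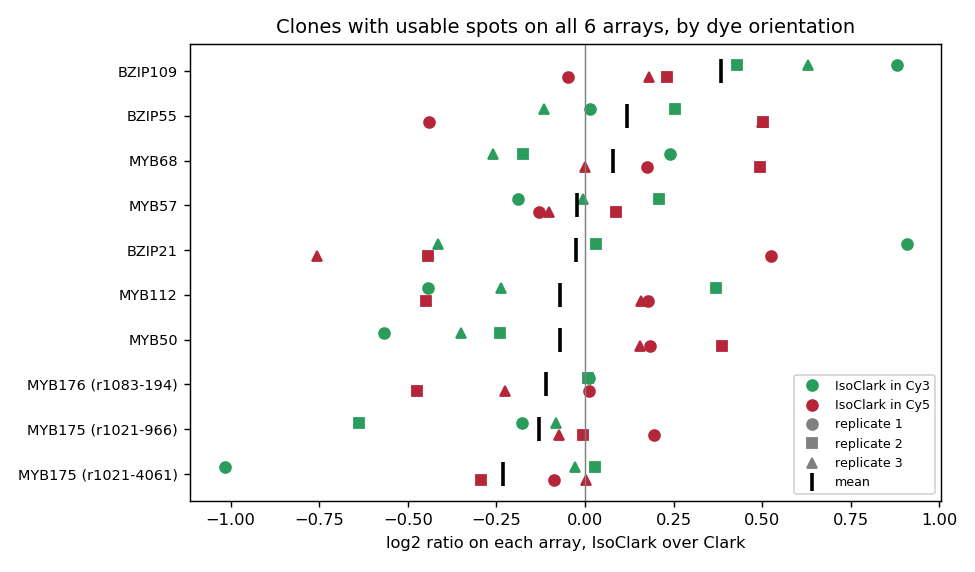
The log2 ratio of IsoClark over Clark on each array (x axis) is plotted for the 10 tested clones with usable spots on all 6 arrays, in green for IsoClark in Cy3 and in red for IsoClark in Cy5, with symbols for the replicates and a black bar for the mean. In MYB50 the 3 green points lie below 0 and the 3 red points above it, and in BZIP109 all green points lie to the right of all red points.

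Transcription factors with other symbols gave a like picture. Symbols alone decided this list, so bZIP or MYB-related proteins under other names, such as GBF2 and LHY, were not kept out. The 15 genes named for the DREB, EREB, GBF, HSF, LHY, MADS, NAC, SCOF and TBP groups had 33 clones, of which 23 were tested, with a median ratio of 0.005, 12 above 0 and 11 below. Of these, 0 passed in either direction, and 1 had an unadjusted p under 0.05, a clone of the TATA-binding protein gene TBP1. Its values were 0.23, 0.32 and 0.40, a mean of 0.31 ± 0.08. The spots of the whole list were above background in 81.9% ± 10.4 of cases, and its median clone lay at the 58.8 percentile, between the bZIP and WRKY medians. The GBF2 clones lay at the 62.1 and 58.8 percentile.

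Enzymes of phenylpropanoid and flavonoid synthesis, the pathway for which plant MYB factors are best known, were also measured. Of 45 clones for 23 genes 33 were tested, with a median ratio of -0.05, 13 above 0 and 20 below, and 0 passed in either direction. At an unadjusted p under 0.05 there were 5 of 33, 3 higher and 2 lower in IsoClark, beside the 5.53% of all clones. The higher ones were IF7GT, an isoflavone glucosyltransferase, at 0.65 ± 0.32 (0.38, 1.00 and 0.56), the isoflavone reductase IFR1 at 0.42 ± 0.33 (0.46, 0.08 and 0.73) and the flavanone 3-hydroxylase F3H at 0.38 ± 0.33 (0.34, 0.72 and 0.07). The lower ones were a clone of IFS1, the isoflavone synthase, at -0.33 ± 0.24 (-0.50, -0.44 and -0.06), and a clone of CYP93E1 at -0.35 ± 0.26 (-0.42, -0.56 and -0.06), which entered the list by its name although its enzyme belongs to triterpene synthesis. These clones thus lay on both sides of 0, and each had an adjusted limma p of 0.796. The 3 clones on the IsoClark side were dim, at the 12.9 to 33.7 percentile, and the 2 on the Clark side bright, at 86.9 and 96.1.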

How the data were processed

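Root RNA of both lines was compared on 6 arrays, 3 biological replicates with a dye-swap pair each, and 90 ug of RNA per labelling. The limma p-values and intervals rest on the spread between these replicate values, with each clone's variance moderated by eBayes toward that of all clones tested. The authors scanned the slides and quantified spots with ImaGene, and the deposited scanner files hold intensity on a linear scale, not normalized, with a quality flag stored as a score. The deposited table of log2 ratios, for which no normalization is given in the sources used here, served as an alternative. Against the scanner values, 5 of its columns ran as IsoClark over Clark, while by its label the replicate 3 column with IsoClark in Cy3 ran the other way, and the column medians ran from -0.27 to 0.11.

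Gene names belong to rows of that table. Rows were tied to clones by clone number plus 1 shift per clone set, found from the values: over the runs of 96 clones that hold members, the lowest r was 0.778 at the row used and the highest elsewhere 0.442. All 7 clones printed 2 times and named on both rows had the same name on each. A single symbol stands on 1158 rows, several on 13 and none on 18029.

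In limma version 3.58.1 (R version 4.3.3), background was corrected by normexp (offset 50) on signal mean and background median, and arrays were normalized by global loess, with weight 0 for the 551 blank or empty spots and for poor spots. The label field's dye set the sign so that ratios are IsoClark over Clark, spots were averaged to clones and arrays to replicates, and replicate values were tested against 0 by lmFit and eBayes with Benjamini-Hochberg adjustment over all clones tested. Where a poor spot left a replicate with 1 array, a dye effect does not cancel. Saturated spots were kept. The number of arrays limits the precision. The code was tested on simulated data.

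Per-replicate values are given, in each family, for the 3 highest and 3 lowest ratios, the 2 brightest and 2 dimmest clones, clones with an unadjusted p under 0.05 and every clone of a gene with several, apart from BZIP53B and WRKY33, whose signals were near background and are given in place of a ratio. The members, lists and rules were chosen with earlier results of these data known. Alternatives were another normalization, background correction, use of flags, array direction, the deposited ratios, the filter, a replicate block, the day of quantification and each replicate left out. Sequences and coordinates are not used here.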

Additional observations from a re-analysis of the deposited data

Results flagged for a closer look

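MYB50 drew attention because its line ratio had opposite signs in the dye orientations. The mean log2 ratio of IsoClark over Clark was -0.39 ± 0.17 (SD over 3 arrays) with IsoClark in Cy3 and 0.24 ± 0.13 with IsoClark in Cy5. Cy5 over Cy3 was 0.31, with an unadjusted limma p of 0.0133 (the lowest an exact sign-flip test on 3 pairs allows is 0.25), or 0.282 after adjustment. Over all 2618 clones in that comparison 0 were called at 0.05 after limma's adjustment, 321 had an unadjusted p under 0.05 and the smallest adjusted p was 0.0818.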

How the results depend on the processing

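The number of member clones passing an adjusted p of 0.05 was 0 under all 18 alternatives, with 0 to 3 members at an unadjusted p under 0.05. With 6 arrays, a dye term and the replicate as a block, 0 of 31 members passed, and the correlation within replicates was -0.003. The family medians of the line ratio moved by less than the SD of their replicate medians under every alternative, although each family's median had either sign. Leaving out a replicate gave medians of -0.03 to 0.002 for MYB, -0.003 to 0.20 for bZIP and 0.03 to 0.05 for WRKY. Replicate 1 was quantified on another day than replicates 2 and 3, and its medians alone were 0.01, -0.10 and -0.01. Of 24 named tested clones, 17 changed sign under some alternative and 7 under none, and 43 of 417 values had the opposite sign. BZIP109 ran from 0.11 with the deposited ratios unturned to 0.42. The bZIP share above background was 64.6% with 3 background SD as the threshold and 81.4% without BZIP53B, the second chosen after seeing the data. No other share or brightness median moved by more than its replicate SD.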
